A study of Mus musculus with 8 samples.

Results

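The 8 genes described here are non-crystallin genes of the lens: Mip, Lim2 and Gja3, which encode proteins of the fibre cell membrane, Bfsp1 and Bfsp2, which encode the beaded filament, Lgsn, which encodes lengsin, and the transcription factor genes Hsf4 and Foxe3. They were taken by gene symbol, without an expression filter, from the 57010 genes of the deposited table, and each symbol was found once. They were measured in whole retinas of C57BL/6J mice at 17 days of age, all of which had oxygen-induced retinopathy, a model in which pups are kept in high oxygen and abnormal vessels grow after the return to room air. The control group held 4 libraries from retinas that had received a control vector, a self-complementary adeno-associated virus (scAAV), and the knockdown group 4 libraries from retinas given an scAAV against the long noncoding RNA MM2P, a group whose treatment label reads AAV KO. The sources used here do not give the promoter of the scAAV constructs, the cells they entered, or whether a library came from 1 animal or from a pool. The p-values therefore measure only the spread between these libraries, which may be technical.

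The lens is made of a front layer of epithelial cells and a mass of elongated fibre cells, which differentiate from that epithelium, fill with crystallin proteins and lose their nuclei and organelles. Fibre cells are coupled by connexin channels, carry the water channel protein MIP as a main membrane protein, and hold a filament network particular to them, the beaded filament, built from BFSP1 (filensin) and BFSP2 (phakinin). The lens lies in front of the retina and is removed when a retina is dissected, and the 8 genes were listed together to judge lens RNA in the retina.

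Library totals were 20.5 to 21.4 M estimated counts in the controls and 16.03 to 20.2 M in the knockdown group (M, 1000000 counts), with the lowest total in knockdown 3. The target transcript, Mm2pr in the table, had 1 to 16.95 estimated counts in the controls and 0 to 20.6 in the knockdown libraries, so it does not check the group labels. Defining retinal genes were abundant, in counts per 1000000 (CPM, scaled by TMM): the rod gene Pde6b had 1764 ± 24.4 and 1658 ± 49.4 CPM in the control and knockdown groups, and Glul, the glutamine synthetase gene of Müller glia, 2826 ± 167 and 2724 ± 188 CPM (SD, n = 4 each). The 6 retinal markers summed to 26774 to 27597 CPM in the controls and 24007 to 27838 CPM in the knockdown libraries. The lowest sum of all, 24007 CPM, was that of knockdown 3.

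None of the 8 genes passed the test between the groups, and the highest levels of 6 of them, all but Hsf4 and Foxe3, were in 1 library, knockdown 3. Of the 8 genes, 6 had at least 10 summed counts and were tested with edgeR's quasi-likelihood test, and 0 of these passed at an adjusted p under 0.05, where 13 of all 22314 tested genes (0.0583%) did. At an unadjusted p under 0.05 there was 1 of the 6, Bfsp1, against 5.11% of all tested genes. DESeq2 and limma on log2(TPM + 1) also called 0 of the 6. The control and knockdown values overlapped in all 6, whereas they did not overlap in 3.15% of all tested genes. Log2 fold changes were positive for 5 and negative for 1 of the 6, with a median of 0.82, and over all tested genes 51.4% were positive and the median was 0.00. Lim2 was among the tested genes with 11 counts in all, of which 6 came from knockdown 3.

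**Figure D1:**
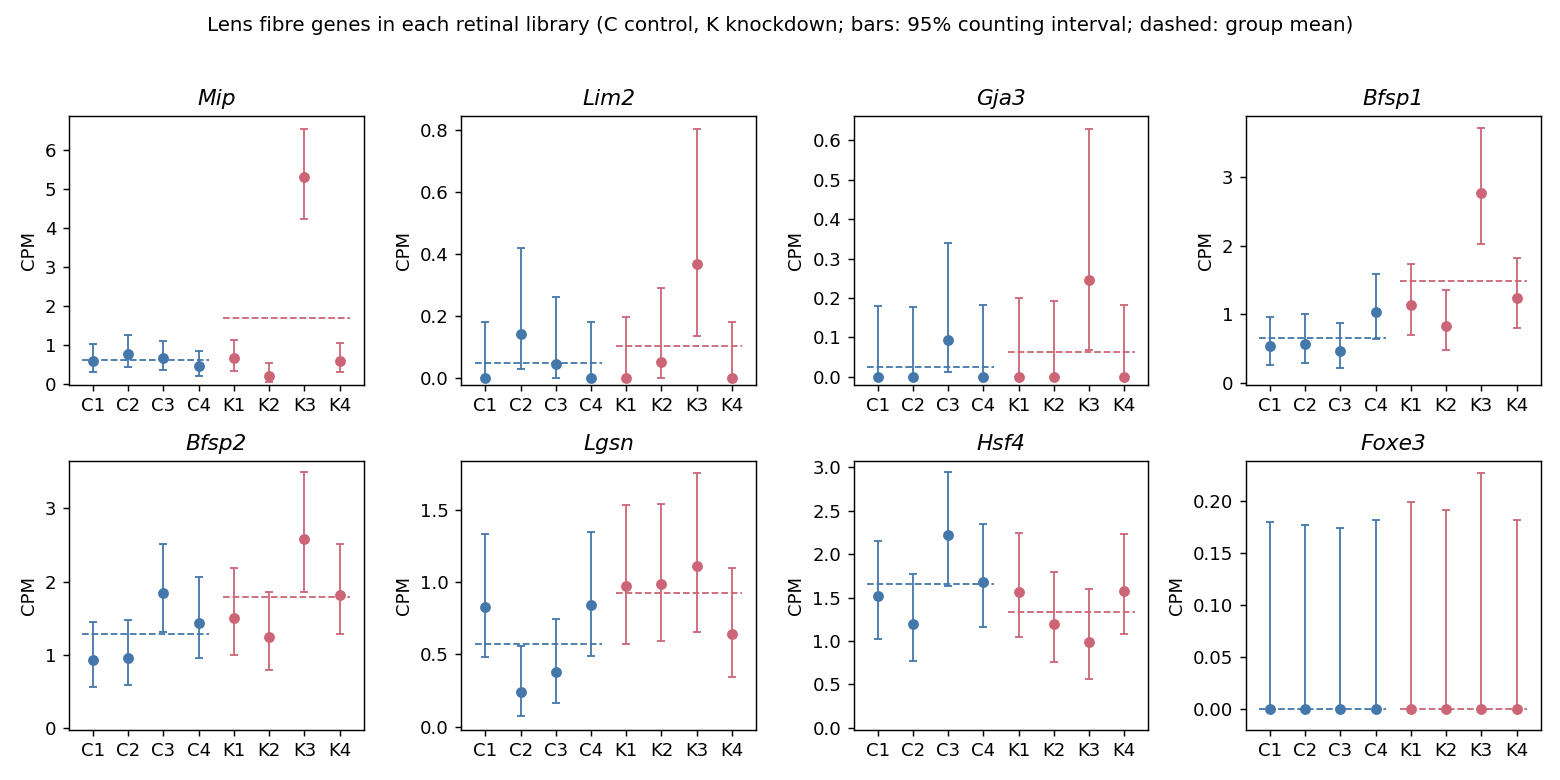
Level of each of the 8 genes (CPM, linear axis, a separate scale per gene) in controls 1 to 4 (C, blue) and knockdown libraries 1 to 4 (K, red), with exact 95% counting intervals as bars and group means as dashed lines. Knockdown 3 stands above the other 7 libraries for Mip at 5.29 CPM and for Bfsp1 at 2.77 CPM, while for Hsf4 it is the lowest at 0.985 CPM.

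Mip, also called aquaporin 0, encodes the water channel and adhesion protein of fibre cell membranes (ENSMUSG00000025389; GRCm38 chromosome 10, 128225838 to 128231812, plus strand). Its promoter is printed, with those of the beaded filament genes, because these are the 3 fibre genes read in every library that had their highest value in knockdown 3 at 2 or more times the control mean. The windows run from 250 bases before to 50 after the RefSeq gene start (GRCm38.p6, gene strand, 5′ to 3′) and are chr10:128225560-128225859 (plus strand) for Mip, chr2:143863124-143863423 (minus strand) for Bfsp1 and chr9:103449127-103449426 (minus strand) for Bfsp2. For Bfsp2 the GENCODE M21 gene starts upstream of this window, at 103480420, so the window belongs to the RefSeq start alone. Capitals mark TGCTGA, a core part of the recognition element of the Maf factors that act in fibre cells, on either strand (TCAGCA where it lies on the opposite one), and the TATA box TATAAA.
Mip: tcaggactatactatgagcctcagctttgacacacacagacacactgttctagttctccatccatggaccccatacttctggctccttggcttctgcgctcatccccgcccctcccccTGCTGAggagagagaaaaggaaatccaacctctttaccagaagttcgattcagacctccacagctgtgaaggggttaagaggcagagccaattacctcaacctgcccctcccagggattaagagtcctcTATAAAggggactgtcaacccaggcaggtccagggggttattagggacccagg
Bfsp1: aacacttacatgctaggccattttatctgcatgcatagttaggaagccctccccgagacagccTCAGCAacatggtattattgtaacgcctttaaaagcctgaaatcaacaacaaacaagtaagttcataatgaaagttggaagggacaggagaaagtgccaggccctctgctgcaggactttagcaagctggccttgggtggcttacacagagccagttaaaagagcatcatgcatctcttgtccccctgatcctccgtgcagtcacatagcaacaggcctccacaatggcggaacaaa
Bfsp2: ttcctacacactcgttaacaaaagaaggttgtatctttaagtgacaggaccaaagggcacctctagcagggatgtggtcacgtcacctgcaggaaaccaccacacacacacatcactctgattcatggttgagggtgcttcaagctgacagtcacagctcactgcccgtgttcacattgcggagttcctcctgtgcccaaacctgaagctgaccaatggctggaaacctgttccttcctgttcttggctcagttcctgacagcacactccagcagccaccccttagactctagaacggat

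Of the 8 genes, 7 had a promoter window in the RefSeq table. The letters TGCTGA occurred on either strand in 4 of the 7 (Mip, Lim2, Bfsp1 and Lgsn) and in 19.5% of all 32851 windows. TATAAA occurred in 3 of the 7 (Mip, Gja3 and Lgsn) and in 13.6% of all windows. In Mip it begins 3 bases before the RefSeq start and 31 bases before the start that GENCODE M21 gives. The core of the heat shock element bound by factors such as HSF4, GAANNTTC, was in 0 of the 7 windows and in 7.86% of all. No motif overlapped another in the printed windows, and a match is a description of the letters alone.

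Mip had 12, 16, 14 and 9 counts in controls 1 to 4 and 12, 4, 86 and 12 counts in knockdown libraries 1 to 4. In CPM the controls had 0.586, 0.766, 0.660 and 0.445, and the knockdown libraries 0.647, 0.208, 5.29 and 0.591. Knockdown 1 and 4 thus lay within the control range, knockdown 2 below it, and knockdown 3 far above it. The exact 95% counting interval of knockdown 3 was 4.23 to 6.54 CPM, and the highest upper bound in the other 7 libraries was 1.24 CPM, in control 2. Such intervals cover the error of counting alone, because PCR reads that carry no molecular identifier are not independent. Knockdown 3 had 8.62 times the control mean of Mip, against 1.05, 0.339 and 0.963 times in knockdown 1, 2 and 4.

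Mip averaged 0.614 ± 0.135 CPM in the controls against 1.68 ± 2.41 CPM in the knockdown group (SD, n = 4 each). The difference did not pass (log2 fold change 1.41, SE 0.71, approximate 95% interval -0.11 to 2.92, edgeR adjusted p = 0.974). Without knockdown 3 the log2 fold change was -0.35 (edgeR adjusted p = 0.9998), so that its direction rested on this library. Over the alternatives in which it was tested the adjusted p of Mip ranged from 0.447 to 1. GENCODE M21 places the opposite-strand noncoding gene Gm26847 over 1223 of the 2144 exonic bases of Mip. Whether the authors' counting used strand is not given in the sources used here, and the counts of Mip may include reads of that transcript.

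Lim2 encodes lens intrinsic membrane protein 2 (MP20), a junctional protein of fibre cells. It had 0, 3, 1 and 0 counts in the controls and 0, 1, 6 and 0 counts in the knockdown libraries. The highest count was again in knockdown 3, at 0.369 CPM with an exact 95% counting interval of 0.136 to 0.804, which overlaps those of the other 7 libraries. Its log2 fold change of 0.95 (SE 1.32, approximate 95% interval -1.86 to 3.75, edgeR adjusted p = 0.998) leaves changes of several-fold in either direction within the interval. The table's identifier, ENSMUSG00000118560, is not in GENCODE M21, where Lim2 is ENSMUSG00000093639 (chromosome 7, 43427670 to 43435996, plus strand, matched by symbol).

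Gja3 encodes connexin 46, a subunit of the gap junctions that couple fibre cells (ENSMUSG00000048582; chromosome 14, 57034460 to 57058100, minus strand). It had 2 counts in control 3, 4 counts in knockdown 3 and 0 in the other 6 libraries, and was too low to be tested. A count of 0 allows up to 3 counts, which was 0.142 to 0.185 CPM in a library. At this depth Mip was the 1 membrane gene of the 3 that could be followed in every library.

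The beaded filament genes also had their highest values in knockdown 3. Bfsp1 encodes filensin (ENSMUSG00000027420; chromosome 2, 143826528 to 143863173, minus strand). It had 11, 12, 10 and 21 counts in the controls and 21, 16, 45 and 25 counts in the knockdown libraries. These were 0.537, 0.574, 0.472 and 1.04 CPM for controls 1 to 4 and 1.13, 0.832, 2.77 and 1.23 CPM for knockdown 1 to 4. Knockdown 1, 3 and 4 exceeded all 4 controls, and knockdown 2 lay below control 4. Group means were 0.655 ± 0.258 and 1.49 ± 0.869 CPM (SD, n = 4 each). The log2 fold change was 1.17 (SE 0.40, approximate 95% interval 0.30 to 2.03, unadjusted p = 0.0113) and did not pass over all genes (edgeR adjusted p = 0.772). Without knockdown 3 it was 0.70 (edgeR adjusted p = 0.9998), and over the alternatives in which it was tested it was positive, with adjusted p from 0.333 to 0.9999.

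Bfsp2 encodes phakinin, the filament partner of filensin (ENSMUSG00000032556; chromosome 9, 103424924 to 103480420, minus strand). It had 19, 20, 39 and 29 counts in the controls and 28, 24, 42 and 37 counts in the knockdown libraries, so that it was read in every library. Controls averaged 1.29 ± 0.434 CPM and knockdown libraries 1.79 ± 0.579 CPM (SD, n = 4 each). Knockdown 3 was highest at 2.59 CPM, which is 2.005 times the control mean, and control 3 was next at 1.84 CPM. The log2 fold change of 0.46 (SE 0.30, approximate 95% interval -0.18 to 1.11) did not pass (edgeR adjusted p = 0.998). The opposite-strand noncoding gene 5830418P13Rik shares 201 of the 1698 exonic bases of Bfsp2 and had 0 to 6 counts per library.

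Lgsn encodes lengsin, a lens protein related to glutamine synthetase (ENSMUSG00000050217; chromosome 1, 31176401 to 31204725, plus strand). It had 17, 5, 8 and 17 counts in the controls and 18, 19, 18 and 13 counts in the knockdown libraries. Knockdown 3, at 1.11 CPM, was close to knockdown 1 and 2 at 0.970 and 0.988 CPM, and knockdown 4 at 0.641 CPM lay among the controls (0.239 to 0.840 CPM). The log2 fold change of 0.69 (SE 0.42, approximate 95% interval -0.20 to 1.58) did not pass (edgeR adjusted p = 0.998). The opposite-strand gene 4931428L18Rik shares 280 of its 1937 exonic bases and had 0 counts in all 8 libraries.

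The transcription factor genes did not share the high values of knockdown 3. Hsf4 encodes a heat shock factor that directs crystallin and other gene expression in fibre cells (ENSMUSG00000033249; chromosome 8, 105269801 to 105275845, plus strand). It had 31, 25, 47 and 34 counts in the controls and 29, 23, 16 and 32 counts in the knockdown libraries. The value in knockdown 3, 0.985 CPM, was the lowest of all 8. Group means were 1.65 ± 0.427 and 1.33 ± 0.290 CPM (SD, n = 4 each), and the log2 fold change of -0.31 (SE 0.27, approximate 95% interval -0.88 to 0.27) did not pass (edgeR adjusted p = 0.998). Foxe3, a forkhead gene of the lens epithelium (ENSMUSG00000044518; chromosome 4, 114925147 to 114926013, minus strand), had 0 counts in all 8 libraries.

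**Figure D2:**
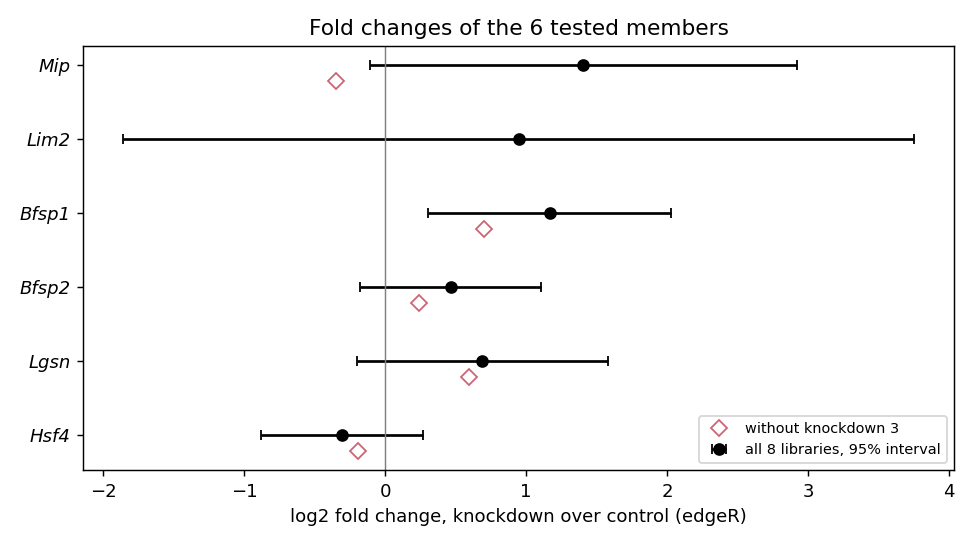
edgeR log2 fold changes of the 6 tested genes, knockdown over control, with approximate 95% intervals (black) and the value without knockdown 3 (red diamonds; Lim2 fell under the count minimum there). The interval of Bfsp1, 0.30 to 2.03, is the 1 that does not include 0, and Mip moves from 1.41 to -0.35.

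Levels were compared between the genes per transcript length. In transcripts per 1000000 (TPM, computed from the counts and gene lengths), the controls had 2.34 ± 0.576 for Hsf4 and 1.91 ± 0.613 for Bfsp2 (SD, n = 4 each), and the pair overlapped. Bfsp1 at 0.745 ± 0.270, Lgsn at 0.724 ± 0.384 and Mip at 0.711 ± 0.174 TPM overlapped with each other. The lowest control value of Bfsp2, 1.40 TPM, was above the highest of Bfsp1, 1.14 TPM. Lim2 at 0.136 ± 0.195 and Gja3 at 0.0209 ± 0.0419 TPM were near the detection limit and overlapped with each other. The highest control value of Lim2, 0.415 TPM, was also above the lowest of Lgsn, 0.315 TPM, and Foxe3 was at 0. In knockdown 3 the order differed: Mip led with 6.32 TPM, followed by Bfsp2 with 3.98 and Bfsp1 with 3.28 TPM, while Hsf4 had 1.45 TPM.

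Cryaa, which encodes the chaperone αA-crystallin of fibre cells, had 1, 7, 1 and 3 counts in controls 1 to 4, where Hsf4, Bfsp2, Bfsp1, Mip and Lgsn all had counts. In TPM Cryaa had 0.122 to 0.898 in the controls, below Hsf4 and Bfsp2 in each control. In control 2 its 0.898 TPM was above Bfsp1, at 0.679 TPM, and Lgsn, at 0.315 TPM. The label of lens fibre genes thus holds for their textbook expression, but in these retinas 5 of the 8 were read in every control, where Cryaa had 7 counts or fewer. Cryaa does not stand for all crystallins. In controls 1 to 4 Crybb3 had 37, 35, 31 and 39 counts and Crybb1 had 18, 23, 13 and 13, whereas Crygs had 0 in each. In bulk tissue the kind of cell that these reads came from, the number of such cells and the RNA per cell cannot be told apart.

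The sum of the crystallins and that of the 8 genes differed in how many knockdown libraries were high. The 15 crystallins of a list without Cryab, which the retina also expresses, summed to 3.13, 3.97, 2.45 and 3.51 CPM in controls 1 to 4. In knockdown 1 to 4 they summed to 43.5, 15.2, 159 and 36.8 CPM, so that all 4 were above every control. The 8 non-crystallin genes summed to 4.40, 3.88, 5.71 and 5.44 CPM in the controls and to 5.82, 4.52, 13.4 and 5.86 CPM in the knockdown libraries. Knockdown 2 lay within the control range of this sum, and knockdown 1 and 4 were above the highest control, 5.71 CPM, by less than the SD of the controls, 0.862 CPM. Mip made up 39.6% of the sum in knockdown 3 and 4.60% to 19.8% in the other 7 libraries.

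Set against the control means, knockdown 3 had 48.8 times the crystallin sum and 278 times the level of Cryaa, beside 8.62 times that of Mip, 4.23 times that of Bfsp1, 1.94 times that of Lgsn and 0.596 times that of Hsf4. Knockdown 1 had 13.3 times the crystallin sum and 103 times the level of Cryaa, with Mip at 1.05 and Bfsp1 at 1.73 times. In knockdown 4 the crystallin sum was 11.3 times the control mean, with Mip at 0.963 and Bfsp1 at 1.88 times. In knockdown 2, where the crystallin sum was 4.66 times the control mean, Mip was at 0.339 and Bfsp1 at 1.27 times. Mip was therefore above its control range in 1 of the 4 libraries in which the crystallin sum was above every control. These ratios describe single libraries, and the difference between Mip and the crystallins was not tested. They also depend on the control level, which differed between crystallins. Crybb3 and Crybb1 averaged 1.72 and 0.809 CPM in the controls, where the crystallin sum averaged 3.27 CPM. In knockdown 2 Crybb1 had 13 counts, against 18, 23, 13 and 13 in the controls, while Crygs had 14 against 0 in each control.

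**Figure D3:**
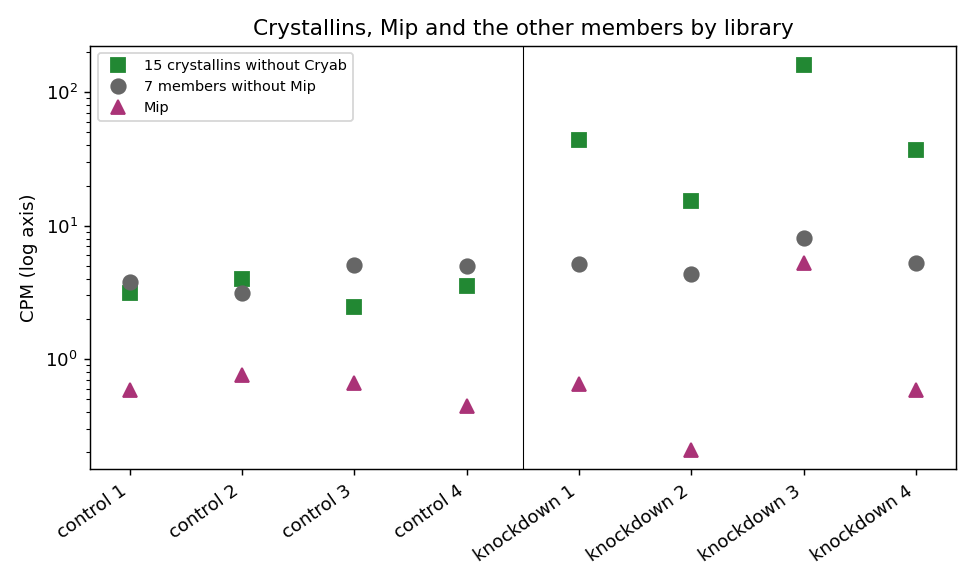
Summed level of 15 crystallins without Cryab (green squares), of the 7 non-crystallin lens genes other than Mip (grey circles) and of Mip (purple triangles) in each library, in CPM on a log axis. The crystallin sum is above all controls in all 4 knockdown libraries, from 15.2 to 159 CPM, whereas Mip is above the control range in knockdown 3 alone.

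The 8-gene sum averaged 4.85 ± 0.862 CPM over the controls and 7.39 ± 4.03 CPM over the knockdown libraries (SD, n = 4 each), a ratio of 1.52. Without knockdown 3 the ratio was 1.11. All 16 crystallins were tested. Of them, edgeR called 8 higher and 0 lower in the knockdown group, against 0.0403% and 0.0179% of all tested genes. All 16 had positive log2 fold changes, and 15 had an unadjusted edgeR p under 0.05, against 51.4% and 5.11% of all tested genes. The median log2 fold change of the 16 was 5.77. Those with the smallest p-values were Cryaa, Cryge, Crygd and Crygb (edgeR adjusted p = 0.0103 for each), and how reads were divided among the similar γ-crystallin paralogs is uncertain. The number of crystallins called higher was 0 without control 1, control 2 or control 4, and 7 without knockdown 3. With any of those controls left out, 1 gene was called among all tested genes. The number of crystallins called higher was 0 with a robust dispersion, 0 with a mean TPM of at least 5 and 14 with no filter. DESeq2 called 11 of them and limma on log2(TPM + 1) called 0.

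Other genes with roles in the lens, many of them also expressed by the retina, did not pass. For each of the lists in this and the next paragraph, edgeR, DESeq2 and limma on log2(TPM + 1) called 0 genes. Of 10 other lens fibre genes 7 were tested and 0 were called in either direction (0 at an unadjusted edgeR p under 0.05), with a median log2 fold change of 0.20. The most abundant were Tdrd7, an RNA granule gene, at 364 ± 7.75 and 344 ± 14.4 CPM, and Caprin2 at 22.6 ± 2.34 and 25.9 ± 2.78 CPM (SD, n = 4 each). Of 8 lens transcription factor genes 6 were tested and 0 called (0 at an unadjusted edgeR p under 0.05), with a median of -0.02. The leading ones, Mab21l1 at 326 ± 18.6 and 322 ± 13.7 CPM and Pax6 at 312 ± 12.5 and 308 ± 30.3 CPM, are also retinal genes. Pitx3, a lens epithelial gene, had 0 counts in all 8 libraries, like Foxe3.

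Families to which the 8 genes belong were read in the same way. Among 8 connexins 5 were tested and 0 called (1 at an unadjusted edgeR p under 0.05), with a median log2 fold change of -0.08. Gjd2, the neuronal connexin 36 gene, had 184 ± 4.47 and 174 ± 7.95 CPM, and Gja1, the connexin 43 gene, 29.3 ± 4.91 and 34.95 ± 5.24 CPM. All 5 aquaporins of the list were tested and 0 called (0 at an unadjusted p under 0.05, median 0.08), among them Aqp1 at 89.5 ± 6.25 and 94.8 ± 7.54 CPM and the glial Aqp4 at 136 ± 7.36 and 131 ± 6.38 CPM. Of the 7 genes of the beaded filament and its partners 0 were called (1 at an unadjusted p under 0.05, Bfsp1; median -0.02), with Sptan1, a spectrin gene, at 715 ± 43.7 and 704 ± 52.7 CPM and Vim, the vimentin gene, at 186 ± 6.38 and 197 ± 45.1 CPM. Of 9 heat shock factor and heat shock protein genes 0 were called (0 at an unadjusted p under 0.05), and 7 had negative log2 fold changes (median -0.10), with Hsph1 at 105 ± 4.09 and 97.8 ± 7.41 CPM.

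Markers of other tissues did not have their highest sum in knockdown 3. Of 4 corneal epithelial markers, Krt5 and Krt14 had 0 counts in all 8 libraries, and the 4 summed to 0.189 to 0.395 CPM in the controls, 0.246 CPM in knockdown 3 and up to 0.539 CPM in the other knockdown libraries. Of 3 lens epithelial markers, Foxe3 and Pitx3 were at 0 and Mab21l1 is shared with the retina. The 5 retinal pigment epithelial markers summed to 113 to 143 CPM in the controls, and the knockdown libraries had 98.6 to 151 CPM, with 104 CPM in knockdown 3. Of these 5, 3 had positive and 2 negative log2 fold changes, and 0 were called (1 at an unadjusted edgeR p under 0.05, Tyr). Tyr had 7.09 ± 0.714 and 9.61 ± 0.943 CPM in the control and knockdown groups, and Ttr, the largest part of the sum, 96.5 ± 9.07 and 82.5 ± 19.6 CPM (SD, n = 4 each). The 5 ciliary body and iris markers summed to 25.003 to 36.1 CPM in the controls, and the knockdown libraries had 31.8 to 44.9 CPM, with the lowest of these in knockdown 3. The 5 skeletal muscle markers summed to 2.15 to 5.42 CPM in the controls, 2.59 to 3.28 CPM in knockdown 1, 2 and 3 and 33.3 CPM in knockdown 4. The 2 corneal stroma markers summed to 0.0472 to 1.17 CPM (controls) and 0.185 to 0.641 CPM (knockdown), and the 3 erythrocyte markers to 54.3 to 82.1 and 74.6 to 118 CPM. Log2 fold changes were positive for 5 of 5 ciliary body and iris, 5 of 5 muscle and 3 of 3 erythrocyte markers. They were positive for 2 of 2 tested corneal epithelial markers and for 1 of 2 corneal stroma markers. At an unadjusted edgeR p under 0.05 there were 1, 3, 1, 0 and 1 genes in these lists, in that order, and 0 were called. The part of these tissues in the values of the 8 genes was not tested.

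The gene most like Mip over the 8 libraries was a crystallin gene. Likeness was the root mean square distance between log2(CPM + 0.5) profiles, each centred on its own mean, among 16926 genes with at least 80 summed counts, and the median distance of all genes from Mip was 0.87. Crybb3, a β-crystallin gene, was nearest at 0.43, then Crybb1 at 0.50 and the predicted gene Gm44560 at 0.52. Crybb3 had 37, 35, 31 and 39 counts in the controls and 61, 39, 177 and 69 counts in the knockdown libraries, with the same high library as Mip.

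No crystallin was among the 3 nearest genes of the other 4 that could be compared. For Bfsp1 these were Oas1e, Gm20449 and Plin4 (0.23 to 0.28, where the median gene was at 0.55), and for Bfsp2 they were Cdk3, Pcdhga1 and Gm5559 (0.15 to 0.16, median gene 0.38). Those of Lgsn were Fanci, F730016J06Rik and Crip1 (0.15 to 0.18, median gene 0.39), and those of Hsf4 were 2900064F13Rik, Ndufaf5 and ENSMUSG00000119968 (0.09 to 0.11, median gene 0.28). These distances are descriptions over 8 libraries, and low counts add sampling noise to each profile. They are not scaled for the size of the changes. The profiles of these 4 genes lay 0.25 to 0.53 from their own means by the same measure. A gene with far larger changes, as many crystallins had, could not be near them whatever its pattern.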

How the data were processed

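TRIzol extracts of retina were sequenced as paired reads (NovaSeq X Plus), per the labels. The submitters' processing notes list Bowtie 0.12.2 and mm9 without saying what either was used for. Despite a name that says TPM, the table the authors deposited holds estimated counts: its library totals differ, and in each library 90.6% to 91.9% of the 57010 values, zeros included, are exactly whole. Gene lengths in bases are the authors', as deposited, and the sources used here give neither the counting tool nor its annotation. The authors' group means were left out.

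Counts were rounded and compared between the groups with edgeR 4.0.16 (quasi-likelihood test, TMM, group as the only term) in R 4.3.3, over the 22314 genes with at least 10 summed counts, a filter blind to the groups. A call was an adjusted p (Benjamini-Hochberg, over all tested genes) under 0.05. SE values are the size of the log2 fold change divided by the root of F, and 95% intervals use edgeR's degrees of freedom and are approximate. CPM are counts over the TMM-scaled total of tested genes. The floor is 3 counts per library. Counting intervals are exact Poisson intervals. Positions and overlaps come from GENCODE M21 (GRCm38), which holds 91.3% of the table's gene identifiers, and promoters from RefSeq (GRCm38.p6). The fit was tested on simulated data.

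The genes and lists were chosen with earlier results of these data known, and the motifs after the counts were seen. All 8 genes are named. From each list, up to 4 called genes, or else the 2 with the highest mean TPM, are named, and for each of the 8 genes with at least 80 summed counts the 3 nearest in pattern. Crybb1, Crybb3, Crygs, Tyr and Ttr were added with their values in view. Alternatives were DESeq2 1.42.0 and its size factors, library totals alone, limma 3.58.1 on log2(TPM + 1), robust dispersion, 3 other filters, leaving out each library, and a replicate block. Some genes of the lists are not reported here.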

Additional observations from a re-analysis of the deposited data

Results flagged for a closer look

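In 5 of 16 sets of 4 libraries, 1 library lay so far from the other 3 that its gap, divided by the whole range, exceeded Dixon's 95% critical value. For continuous values chance flags about 1 in 20 such sets, and the sets share their libraries. That rate does not hold for Gja3, where 3 of the 4 libraries were at 0 in each group and any count in the last one meets the criterion. In the knockdown group, knockdown 3 stood apart for Mip at 5.29 CPM, where the other 3 had 0.208 to 0.647 CPM. It stood apart as well for Lim2 at 0.369 CPM against 0 to 0.0520 CPM, and for Gja3 at 0.246 CPM against 0. The same held for the sum of the 8 genes, at 13.4 CPM against 4.52 to 5.86 CPM. This sum is not separate from Mip, which made up 39.6% of it in knockdown 3. Without Mip it was 8.06 CPM in knockdown 3 and 4.32 to 5.27 CPM in the other 3. In the control group, control 3 stood apart for Gja3 at 0.0943 CPM against 0, which rests on 2 counts.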

How the results depend on the processing

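The number of the 8 genes called was 0 under all 17 alternatives tried. With a mean TPM of at least 5 none of them was tested, with at least 1 TPM in 4 libraries 4 were, and without control 2 or knockdown 3 Lim2 was not tested. The signs of Bfsp1, Bfsp2, Lgsn, Hsf4 and, where tested, Lim2 were kept under each alternative, whereas Mip turned to -0.35 without knockdown 3 and ranged up to 1.78 without knockdown 2 when each library was left out. The ratio of the 8-gene sum was 1.52, between 1.496 and 1.54 with other scalings or TPM, 2.70 for Mip, Lim2 and Gja3 alone, and 1.11 to 1.72 when each library was left out.

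Of all tested genes 13 were called with edgeR, 50 with DESeq2, 0 with limma on log2(TPM + 1) (1115 at an unadjusted p under 0.05), 2 with a robust dispersion, 157 with no filter and 1 among genes averaging at least 5 TPM. Leaving out 1 library gave 1 to 74 genes, with 1 without control 1, 2 or 4 and 74 without control 3. With the replicate block 32 genes were called and 0 of the 8. The same-numbered pairs correlated in their deviations at 0.09, 0.05, -0.06 and -0.24, which gives no sign of pairing but cannot exclude it. The cause of these differences was not tested. Counts of 0 to 86 per gene and library limit what could be detected in the 8 genes.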

Other observations

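Low lens transcripts other than the 8 were also uneven, and those given here were picked with their values in view. Grifin, a lens galectin-related gene, had 1, 0, 0 and 2 counts in the controls and 1, 1, 5 and 2 counts in the knockdown libraries, with the most in knockdown 3. Birc7 had 1 count in control 2, 1 in knockdown 2, 3 in knockdown 3 and 2 in knockdown 4. Dnase2b, which encodes the nuclease that degrades fibre cell DNA, had 2 counts in control 1 and 0 in the other 7 libraries.

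Crygs, the γS-crystallin gene of the same list, had 0 counts in all 4 controls and 45, 14, 216 and 25 counts in the knockdown libraries, and it did not pass (edgeR adjusted p = 0.0900).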
